A study of Homo sapiens with 2 samples.

Results

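The ribosomal protein genes of the cytosol encode the proteins of the large (RPL) and small (RPS) ribosomal subunits. They were taken here as the probe sets that carry a single gene symbol beginning with RPL or RPS and a number, without RPS6 kinases, antisense or divergent transcripts and pseudogenes. For each gene the brightest of its probe sets, by mean log2 signal over the pair of arrays, was used. The symbols of 62 genes matched. RPS19BP1 was left out, because it encodes an RPS19 binding protein and no ribosomal protein (signals 4234 and 2794). The remaining 61 genes, 39 of the large and 22 of the small subunit, stand among 19775 genes with a single symbol. They comprised 52 standard ribosomal proteins and 9 paralogs. A gene counted as measured if its mean log2 signal over both arrays reached that of a signal of 50.4, the median over probe sets other than controls, and 57 of the 61 did. RPL36A, RPL3L, RPL39L and RPS4Y1 did not.

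The arrays measured total RNA of HCT116, a cell line long established from a human colorectal carcinoma, 2 days after siRNA transfection. One array held RNA of cells given a control siRNA. The other held RNA of cells given siRNAs against JMJD1A and JMJD1B, the older names of the histone H3 lysine 9 demethylases KDM3A and KDM3B. The siRNA sequences are not given in the sources used here, and what each target contributed cannot be told apart. Each group was 1 sample on 1 array, so no difference below carries a replicate error or a test. A difference describes these samples and hybridizations, not the conditions. Both groups share the transfection reagent and culture. On the JMJD1A/JMJD1B siRNA array 16.4% of the control signal was left for KDM3B and 85.6% for KDM3A, as deposited. These are log2 ratios (JMJD1A/JMJD1B siRNA over control) of -2.61 and -0.22. With the arrays level on the hybridization controls described below, they would be -3.22 for KDM3B and -0.84 for KDM3A. The epithelial markers EPCAM, CDH1, KRT8, KRT18, KRT19 and CLDN4 were all measured. Of the leukocyte, fibroblast and endothelial markers searched, 2 of 5, 2 of 6 and 1 of 4 were measured, none above a signal of 631 on either array.

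A ribosome needs 1 copy of nearly every ribosomal protein, so cells make these proteins in balanced amounts. Their messenger RNAs are among the most abundant of a growing cell. Most begin with a run of pyrimidines directly at the transcription start, the terminal oligopyrimidine (TOP) tract, through which the kinase mTORC1 and the RNA-binding protein LARP1 control their translation and stability. Colorectal carcinoma cells that grow fast make many ribosomes. Several ribosomal proteins, RPL5 and RPL11 among them, also bind the p53 inhibitor MDM2 when ribosome assembly is disturbed.

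Nearly all standard ribosomal protein genes gave more signal after JMJD1A/JMJD1B siRNA, by similar amounts. Of 49 whose brightest probe set read over 10000, all had a log2 ratio (JMJD1A/JMJD1B siRNA over control) between 0.45 and 0.87, which is 1.37-fold to 1.82-fold, with a median of 0.71 and an SD among genes of 0.091. Their signals spanned 20025 to 41381 with control siRNA and 30331 to 69827 with JMJD1A/JMJD1B siRNA. Over the 57 measured members, paralogs included, the median was 0.69. Of these, 54 had a ratio above 0, as had 52.1% of the 12561 measured genes. A 1.5-fold higher signal was reached by 44 members and a 1.5-fold lower one by 1, and by 21.7% and 19.5% of measured genes. No member reached 2-fold higher and 1 reached 2-fold lower, against 8.91% and 8.53% of measured genes. The median of all measured genes was 0.04, with an SD of 0.78.

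**Figure D1:**
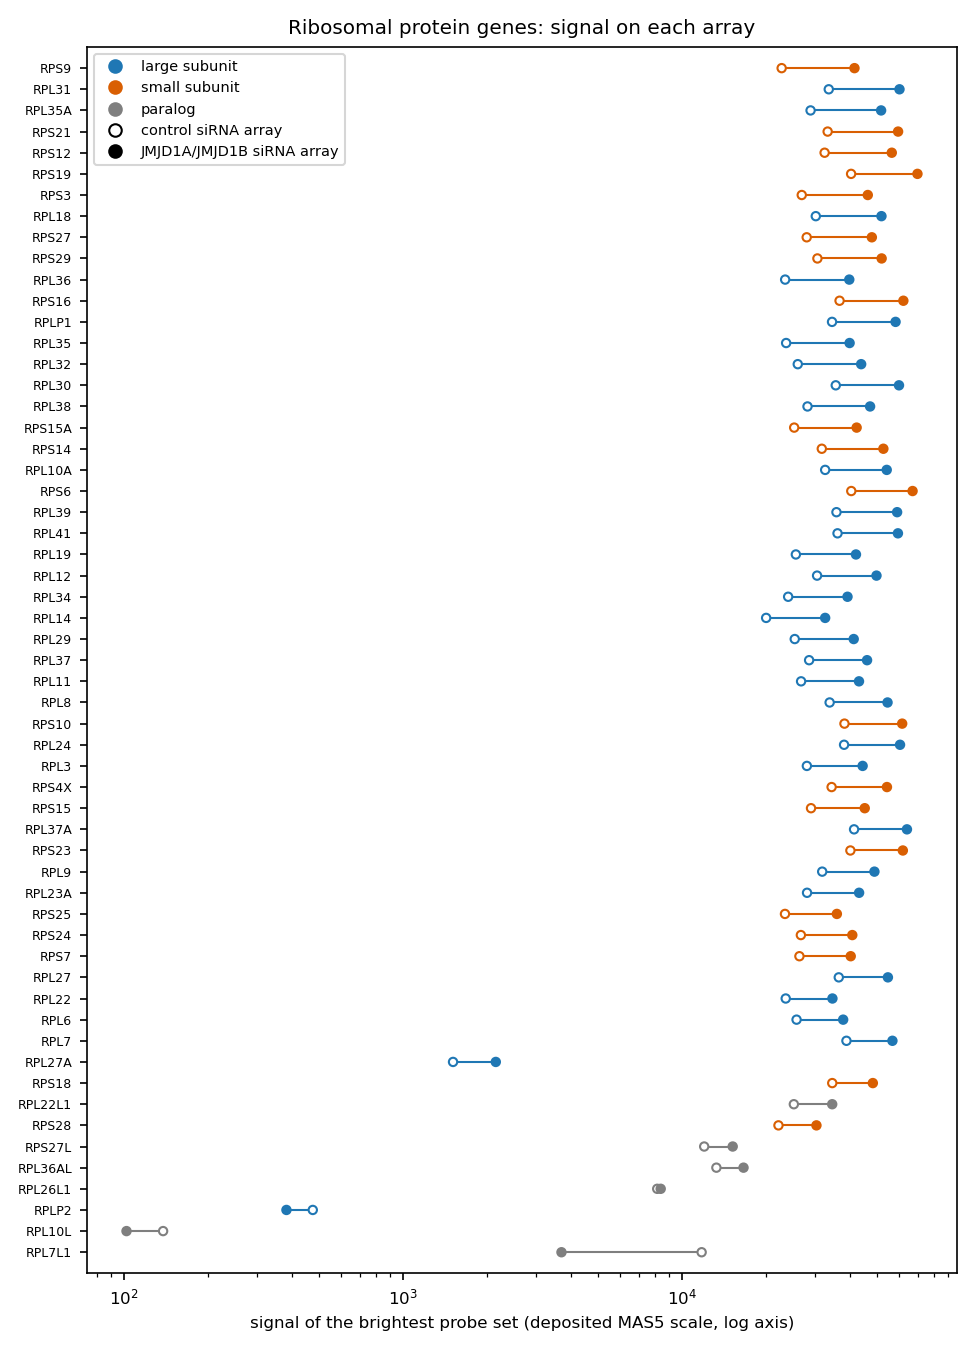
Signal of the brightest probe set of each of the 57 measured ribosomal protein genes on the control siRNA array (open circles) and the JMJD1A/JMJD1B siRNA array (filled circles), on a log axis, ordered by log2 ratio. The standard genes above 20000 shift to the right by a similar step, and the paralog RPL7L1 goes from 11758 to 3697.

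How far these genes moved depends on how the arrays are set against each other. From a signal of about 1000 upward the ratio of other genes increased with signal, and the members sit at the bright end. They made up 32 of the 50 brightest measured genes. Among genes with a mean signal of 30000 or more, the 45 members had a median log2 ratio of 0.72 and the 38 other genes one of 0.55. The SDs among genes were 0.083 and 0.21. Between 1000 and 3000 the 2847 other genes had a median of -0.08. After loess removal of this trend the 49 bright standard members had a median of 0.12, between -0.11 and 0.34. After loess 45 of the 57 measured members lay above 0, against 50.1% of measured genes. Only RPL27A then reached 1.5-fold higher and only RPL7L1 1.5-fold lower, against 19.6% and 20.2% of measured genes. At 2-fold these counts were 0 and 1, against 8.16% and 8.73%. The members were part of that fit. With the trend fitted to the other genes alone, chosen after seeing the data, the median of the 49 was 0.16 and 46 of them lay above 0.

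**Figure D2:**
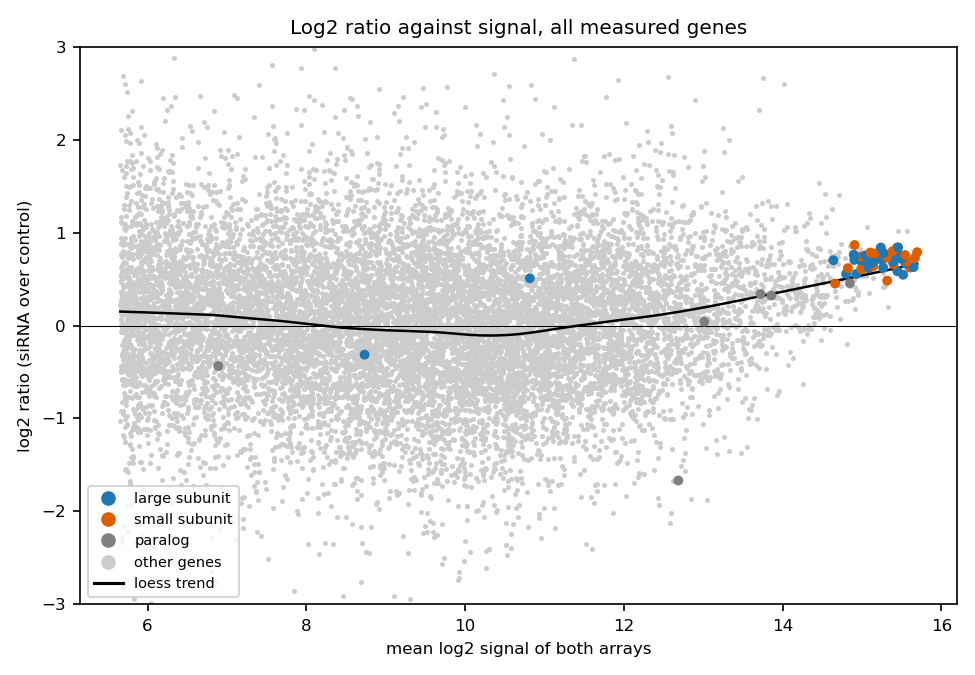
Log2 ratio against mean log2 signal for the measured genes, with ribosomal protein genes in colour and the loess trend as a line. The axis is limited to 3 in either direction, which leaves 27 genes outside. The members form a tight cloud at the bright end, just above a trend that climbs there.

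The hybridization controls, bacterial and phage transcripts added at hybridization, gave a second reference. These 18 probe sets had a median log2 ratio of 0.61, between 0.40 and 0.71, near that of the members. With the arrays level on these controls the 49 bright standard members would have a median of 0.097 and 6 of them would lie below 0, while the median of all measured genes would be -0.57. On that scale 43 of the 57 measured members would lie above 0, against 20.5% of measured genes. None would reach 1.5-fold higher and 3, RPL7L1, RPL10L and RPLP2, would reach 1.5-fold lower, against 5.6% and 49.2%. At 2-fold the counts would be 0 and 2, against 2.15% and 27.7%. The distance between the medians of members and of all measured genes, 0.65, is the same on both scales by construction. Whether the members gained or the other genes lost signal cannot be told apart from these arrays, and RNA per cell was not measured. The brightest probe sets of most members were outside the values that set the scale of an array. The deposited values share a mean of 500.1 once the top and bottom 2% of probe sets are trimmed, and the brightest probe set of 53 of the 57 measured members lay in the trimmed top in control cells, and that of 52 after JMJD1A/JMJD1B siRNA. The 122 probe sets of the members held 4.77% of the summed signal on the control array and 6.58% on the other.

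The start sites carried the sequence that marks this gene family. Of the 61 members, 53 had a start site in the RefSeq promoter table (GRCh38.p14). The windows below hold 15 bases before and 15 from the start. They show the genes with the highest ratios, those with the lowest among the bright standard members, and RPS6. The paralogs RPS27L and RPL22L1 follow their standard partners, and the paralogs RPL36AL and RPL7L1 are shown without theirs. Bases 1 to 15 are upstream of the gene, and the rest are the first transcribed bases, the start of the 5′ untranslated region. Capitals mark the unbroken run of pyrimidines that begins at the first transcribed base.
RPS9, chr19:54200843-54200872, plus strand: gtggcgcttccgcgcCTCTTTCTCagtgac
RPL31, chr2:101002274-101002303, plus strand: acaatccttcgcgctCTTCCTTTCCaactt
RPL35A, chr3:197950175-197950204, plus strand: cggcggggcctcgtcCTTCTCTTaccgcca
RPS21, chr20:62387088-62387117, plus strand: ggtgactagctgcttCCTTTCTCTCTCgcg
RPS6, chr9:19380222-19380251, minus strand: aagcggaagttggccCTCTTTTCCgtggcg
RPS18, chr6:33272060-33272089, plus strand: cgcgtcacttccgctCTCTCTTCCacagga
RPS28, chr19:8321481-8321510, plus strand: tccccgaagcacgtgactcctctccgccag
RPS27, chr1:153990747-153990776, plus strand: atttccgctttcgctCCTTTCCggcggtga
RPS27L, chr15:63157463-63157492, minus strand: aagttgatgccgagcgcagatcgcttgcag
RPL22, chr1:6199581-6199610, minus strand: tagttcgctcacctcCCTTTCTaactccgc
RPL22L1, chr3:170870181-170870210, minus strand: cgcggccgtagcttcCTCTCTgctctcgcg
RPL36AL, chr14:49620612-49620641, minus strand: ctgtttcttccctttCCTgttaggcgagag
RPL7L1, chr6:42879601-42879630, plus strand: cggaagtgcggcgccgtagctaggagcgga

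In RPS9, RPL31, RPL35A, RPS21 and RPS6 the transcript begins with C and a long pyrimidine run, and RPS18, near the low end of the family, has one as long as that of RPS9. RPS27L and RPL7L1 have none. RPS28, the lowest bright standard member, has an A at its annotated start, and a long pyrimidine run begins at the next base. A start with C followed by at least 4 further pyrimidines was found in 34 of 46 standard genes (73.9%), in 2 of 7 paralogs, in 6 of 69 mitochondrial ribosomal protein genes (8.70%) and in 5.14% of all 27305 genes of the table. A gene with several start sites counted if any of them had it. Over the 46 standard genes the longest run at a start had a median of 7 bases. RefSeq starts are single annotated positions, so a tract that begins a base or a few bases away was not counted, as in RPS28, RPL10A and RPL9.

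**Figure D3:**
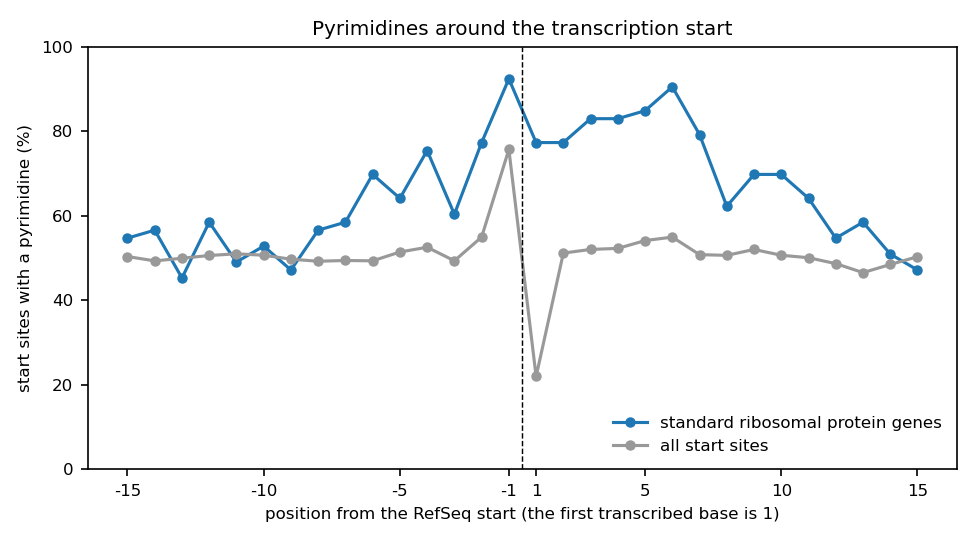
Share of start sites with C or T at each position from 15 bases before to 15 bases after the RefSeq start, for 53 start sites of standard ribosomal protein genes and for all 35116 start sites of the table. At the first transcribed base 77.4% of the ribosomal protein starts and 21.9% of all starts have a pyrimidine, and at the sixth 90.6% and 55.0%.

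Members with and without a tract counted at the annotated start had overlapping ratios. The 33 measured standard members with it had a median log2 ratio of 0.72 and the 12 without it one of 0.65, and 29 and 10 of them reached 1.5-fold higher. Among measured genes outside the family, the 694 with such a start had a median of 0.13, of which 26.5% reached 1.5-fold higher, and the 9453 without it a median of 0.02, with 20.7%. No test was made of these differences. Other letters in the 300-base promoters (250 bases before the start and 50 from it, both strands) were CCGGAAG, part of the site of ETS factors, in 37.0% of standard genes and 12.2% of all genes, and CTTTCC in 47.8% and 30.2%, which overlaps the tract itself. CCGGAAG stood in 43.5% of mitochondrial ribosomal protein genes. CACGTG, the E-box bound by MYC, stood in 6.52% and 8.77%, AAGATGGC, a YY1 site, in 8.70% and 3.52% (30.4% of mitochondrial ribosomal protein genes), and the palindromic NRF1 motif in 2.17% and 1.52%. GGGCGG was found in 56.5% and 48.3% and TATAAA in 6.52% and 14%.

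Both subunits read higher by similar medians. The 31 measured standard genes of the large subunit had a median log2 ratio of 0.70 and the 20 of the small subunit one of 0.73, and 26 and 18 of them reached 1.5-fold higher. The large minus small difference of medians was -0.029, and the SDs among genes were 0.20 and 0.11. Over all measured members, paralogs included, the difference was -0.040. Probe sets marked _x_at or _s_at have probes that may match several transcripts. Over the 26 members left without them the difference was 0.15. Those 26 are another set of genes, some read by a dimmer probe set, so the values are not of like sets. No test of the difference could be made.

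In the small subunit, RPS9, which lines the channel where messenger RNA enters, had the highest ratio of the family, with a signal of 22761 in control cells and of 41521 after JMJD1A/JMJD1B siRNA (1.82-fold). Its second bright probe set read 0.90 on the log2 scale, beside 0.87 for the first. RPS3, its neighbour at the channel entry, read 26867 and 46339 (1.72-fold). RPS21 read 33272 and 59511 (1.79-fold). RPS12 read 32448 and 56492 (1.74-fold). Their control signals ran from 22761 to 33272. All of these genes were among the members named for the highest ratios, so the likeness of their steps follows from that choice.

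RPS14 and RPS28 sit where messenger RNA leaves the subunit, and RPS15 and RPS23 near the decoding site. RPS14 read 31704 and 52702, RPS15 29005 and 45187, and RPS23 40143 and 61893, which is 1.66-fold, 1.56-fold and 1.54-fold. RPS28 read 22169 and 30331 (1.37-fold), the smallest ratio among bright standard members. RPS18, a protein of the head of the subunit, read 34558 and 48312 (1.40-fold). RPS6, the substrate that gave the S6 kinases their name, read 40436 and 67065 (1.66-fold), with its 3 bright probe sets between 0.67 and 0.78.

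In the large subunit, RPL31 and RPL35A had the highest ratios. RPL31, which sits at the exit of the tunnel through which the new protein leaves, read 33580 and 60206 (1.79-fold), and RPL35A 28898 and 51728 (1.79-fold). The other measured tunnel exit proteins had lower log2 ratios, between 0.62 and 0.76, where the bright standard members had a median of 0.71. RPL35 read 23620 and 39884, RPL39 35781 and 59036, RPL19 25594 and 42032, and RPL23A 28070 and 43135, a log2 ratio of 0.62, the lowest of the 5. The list holds 7 such proteins, and RPL17 and RPL26 were not analysed here. RPL18 read 30170 and 51879 (1.72-fold). RPL3 and RPL8, which reach toward the peptidyl transferase centre, were 1.58-fold and 1.61-fold higher.

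RPL11, which joins RPL5 and 5S RNA in the particle that binds MDM2, read 26721 and 43097, a log2 ratio of 0.69. MDM2 itself was at -0.51 and CDKN1A, a p53 target, was 3.02-fold higher. In the stalk that recruits elongation factors, RPLP1 read 34499 and 58286 (1.69-fold), while the single-symbol probe set of RPLP2 read 475 and 382, the only measured standard member below 0. That probe set is dim, and RPL27A, read at 1510 and 2150, was likewise represented by a dim one. Mutations in ribosomal protein genes cause Diamond-Blackfan anaemia, a failure of red cell formation. The list used here holds 9 such genes and need not hold every gene of the disease. The 6 of them that were measured all lay between 0.61 and 0.84. Among these 6, RPL35A and RPS19 (40381 and 69827, 1.73-fold) were highest. This range is not particular to them, as the 49 bright standard members lay between 0.45 and 0.87. FAU, which encodes a ubiquitin-like protein fused to a ribosomal protein of the small subunit and is no member by symbol, read 28332 and 42932 (1.52-fold).

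Most paralogs had smaller ratios than the standard genes. Of the 6 measured, none reached 1.5-fold higher and 1 reached 1.5-fold lower, with a median of 0.18 and an SD of 0.81. Among all measured genes these shares were 21.7% and 19.5%, so the lower count is near the background. Their signals were mostly lower than those of the standard genes, and as the ratio changes with signal, the share of this difference that goes with brightness was not tested. After loess RPL22L1, RPS27L, RPL36AL and RPL26L1 lay between -0.15 and 0.02.

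RPL7L1, a nucleolar relative of RPL7 that takes part in large subunit assembly, was the only measured member to reach 2-fold lower. It read 11758 and 3697, which is 3.18-fold lower, with a log2 ratio of -1.67 on the deposited scale, -1.82 after loess and -2.28 level on the hybridization controls. It has 1 probe set with a single symbol, and that one carries the suffix _x_at. RPL7 itself read 38854 and 56788 (1.46-fold).

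RPL22L1, which can take the place of RPL22 in the ribosome, read 25169 and 34544 (1.37-fold), and RPL22 read 23538 and 34610 (1.47-fold), with log2 ratios of 0.46 and 0.56, so these partners lay close together. RPS27L, a p53-responsive relative of RPS27, read 12009 and 15194 (1.27-fold), where RPS27 read 27987 and 47919 (1.71-fold). A dimmer RPS27L probe set read 0.34, like the brightest, and the dimmest was lower, at -1.21.

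RPL36AL read 13280 and 16614 (1.25-fold). Its partner RPL36A had no measured single-symbol probe set. RPL26L1 was level, with 8149 and 8386 and a ratio of 0.04. RPL10L, a retrogene best known from testis, was dim on both arrays, with 138 and 102.

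Bright probe sets of one gene agreed closely. In 15 standard genes with 2 or more probe sets over 10000, the SD among probe sets of a gene was 0.043 on the log2 scale and the widest range 0.11, in RPS4X. For 98 genes outside the family with 2 or more probe sets over 10000, the same SD was 0.24. Those genes were not matched to the members in brightness. Of measured genes outside the family, 364 had a mean signal of 10000 to 20000 and 38 one of 30000 or more. The share of the gap that goes with brightness was not tested. Ribosomal protein genes have many processed pseudogenes, and 57 of the 68 bright probe sets carry the suffix _s_at or _x_at. The 11 bright probe sets without such a suffix, those of RPL11, RPL19, RPS3 and RPS23 among them, had a median of 0.72 and lay between 0.62 and 0.82, where the 27 with _x_at had a median of 0.70.

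Dim probe sets of the same genes mostly read lower. In 19 standard genes with a bright and a dimmer measured probe set, the dimmer ones averaged lower in 17. All standard members together had 31 measured probe sets under 10000, those of RPLP2 and RPL27A, which have no bright one, included. Of these 31, 8 lay below 0 and 2 reached 2-fold lower, with a median of 0.37 and an SD of 0.59. Among all 12561 measured genes, 6014 lay at or below 0 and 8.53% reached 2-fold lower, so the 2-fold count is near the background. Other genes with a mean signal of 1000 to 3000 had a median of -0.08, and those of 30000 or more one of 0.55. The share of the lower readings that goes with brightness was not tested. The genes whose dimmer probe sets did not average lower, named after their values were seen, were RPL36 and RPS15A. RPS15A had 0.74 for its bright probe set and 0.28 and 1.48 for the dim ones. What part of the transcript or which other RNA these probe sets report was not analysed here. RPL37 had the widest range, from 0.69 for its bright probe set (28554 and 46064) to -1.18 for a dim one (245 and 108). RPS14 had a dim probe set at -1.12, against 0.73 for the bright one. RPL22 had 3 bright probe sets between 0.55 and 0.65, and a dimmer one that read 8942 and 4704 (1.90-fold lower).

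**Figure D4:**
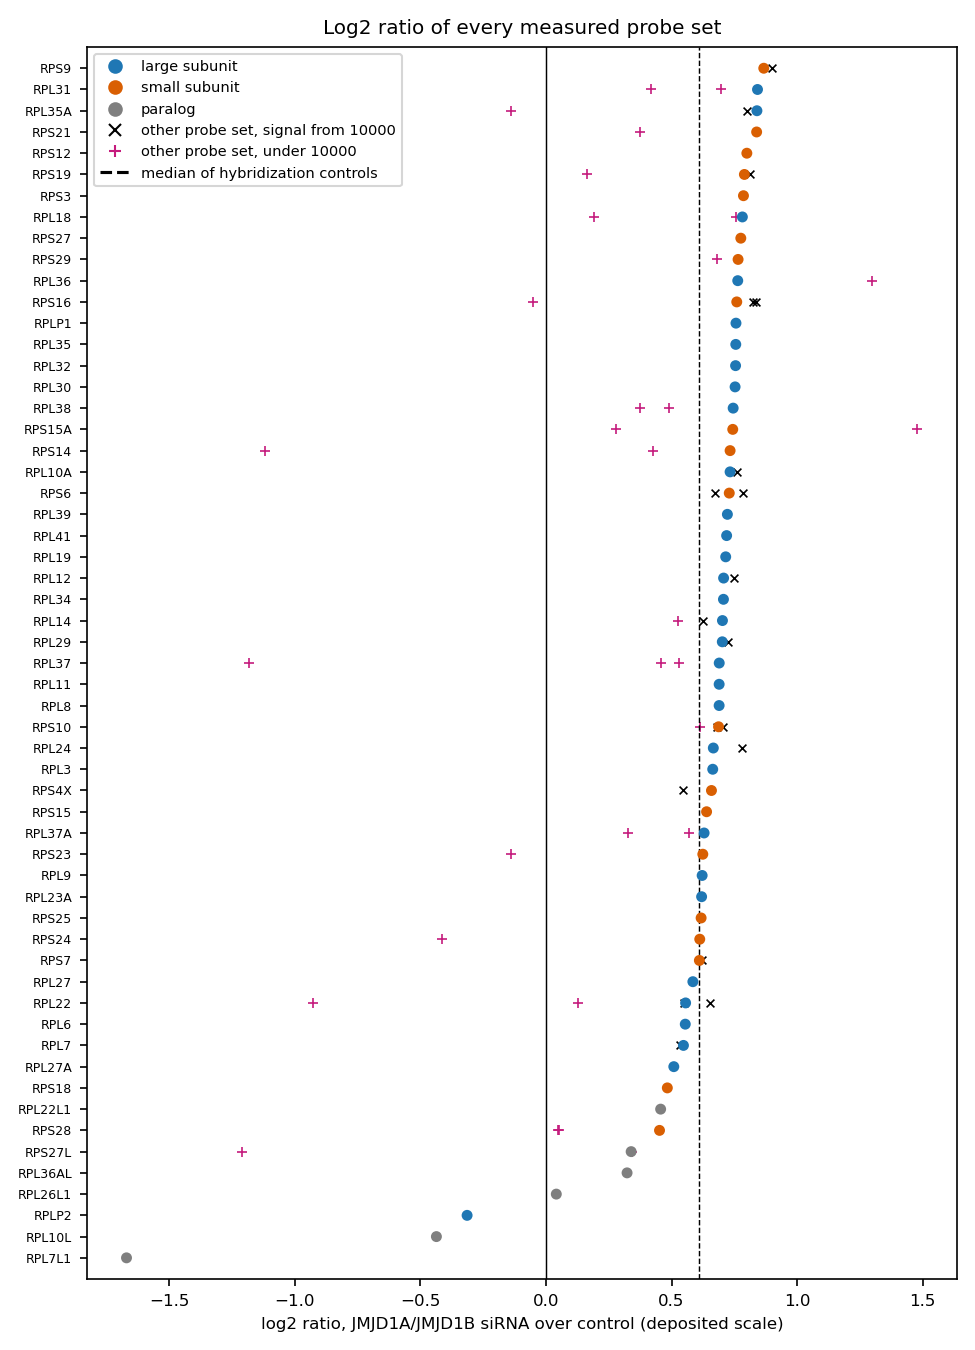
Log2 ratio of every measured probe set of the 57 measured members, ordered by the brightest probe set (filled circles). Crosses mark further probe sets over 10000 and plus signs those under 10000, and the dashed line marks 0.61, the median of the hybridization controls. Crosses lie beside the circles, and plus signs scatter from -1.21 to 1.48.

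Other genes of the translation machinery went different ways. Of 15 measured genes, out of 18 listed, of elongation and further TOP messenger RNAs, 14 lay above 0 and 9 reached 1.5-fold higher, for a median of 0.63, against 52.1% and 21.7% of measured genes. EEF1A1, which brings aminoacyl-tRNA to the ribosome, was 1.68-fold higher (6 probe sets between -0.37 and 0.75) and TPT1, encoding the tumour protein TCTP, 1.70-fold. EEF2, the translocation factor, was at -0.20. These genes are bright too, and after loess the median was 0.11.

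Genes that build ribosomes were lower. Of 27 measured biogenesis factors, out of 31 listed, 18 reached 1.5-fold lower, none 1.5-fold higher and 10 2-fold lower, for a median of -0.86, against 19.5%, 21.7% and 8.53% of measured genes. RRS1, which helps to bring the 5S particle into the precursor, read 3331 and 796 (4.18-fold lower), and UTP20, of the small subunit processome, 1967 and 589 (3.34-fold lower). Of 7 dedicated chaperones that escort single ribosomal proteins, all lay below 0 and 5 reached 1.5-fold lower, with a median of -0.84. GRWD1, the chaperone of RPL3, read 1296 and 382 (3.39-fold lower), TSR2, that of RPS26, 613 and 273 (2.24-fold lower), and LTV1, that of RPS3, 2234 and 1060 (2.11-fold lower). LTV1 is also counted among the biogenesis factors. After loess the medians of both lists were -0.88 and -0.74.

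In the signalling path from mTORC1 to TOP messenger RNAs, 4 of 8 measured genes reached 1.5-fold lower and 1 reached 1.5-fold higher, against 19.5% and 21.7% of measured genes. LARP1, which binds the TOP start, read 8391 and 2778 (3.02-fold lower, with 3 probe sets between -1.81 and -0.78), and the kinase gene MTOR 533 and 216 (2.47-fold lower). EIF4EBP1, the translation repressor 4E-BP1, read 2770 and 6017 (2.17-fold higher). Of 9 measured S6 kinase genes 1 reached each of these thresholds, no larger a share than among all measured genes.

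The mitochondrial ribosomal protein genes, the nearest counterpart by function, had a median of -0.21 over 75 measured genes, of which 6 reached 1.5-fold higher and 16 reached 1.5-fold lower, against 21.7% and 19.5% of measured genes, so that the lower count is near the background. Their SD was 0.52 where the standard cytosolic genes had 0.17. They ran from MRPS7, at 5342 and 1481 (3.61-fold lower), to MRPL33, at 5877 and 11897 (2.02-fold higher). Their median control signal was 4449, against 29005 for the standard cytosolic genes. After loess the medians were -0.25 and 0.12. With 1 array a group no test of this difference could be made.

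**Figure D5:**
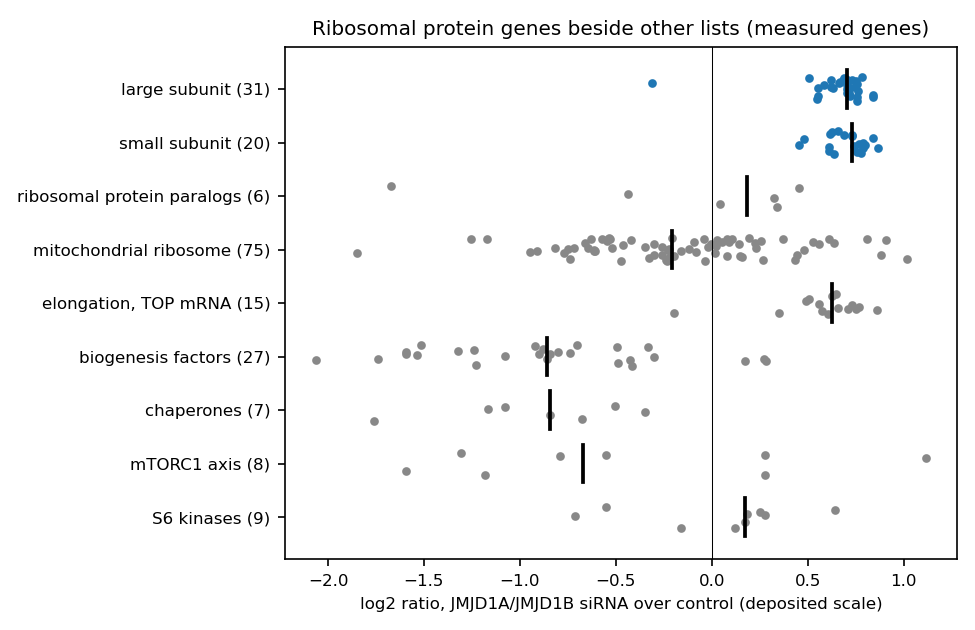
Log2 ratio on the deposited scale for the measured genes of each list, 1 point per gene, with the list median as a bar and the number of genes in brackets. Both cytosolic subunits cluster near 0.7, mitochondrial ribosomal protein genes spread around -0.21, and biogenesis factors lie mostly below 0, with a median of -0.86.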

How the data were processed

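The authors deposited 1 table of linear signal intensity for 54675 probe sets on 2 arrays, and the submitters' processing notes name MAS5. The version and settings are not given in the sources used here. Both columns were matched to a sample.

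Gene names came from the platform annotation, in which 41091 probe sets carried 1 symbol, 1801 several and 11721 none. All 61 member identifiers were found in RefSeq. No pseudocount was added before log2. The gene rule, filter and fold thresholds of 1.5 and 2 are given in the text. The named genes were the measured paralogs, the 8 members with the highest and the 8 with the lowest ratio, the 5 with the widest range among probe sets, and members with a listed role. RPS18, RPL27A and RPL36 were added after their values were seen. The members and lists were chosen with earlier results of these data known. The alternatives were median, quantile, loess (span 0.3) and hybridization control scaling, a pseudocount of 16, no filter and one at 2 times the main filter, and 3 other probe set rules. The loess fit without the members was chosen after seeing the data. Python 3.11.15, numpy 2.4.6, pandas 2.3.3 and statsmodels 0.14.6 were used, and the calculation was tested on simulated data. Protein sequences were not used here. The number of arrays limits the precision.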

Additional observations from a re-analysis of the deposited data

Results flagged for a closer look

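Probe sets that name a ribosomal protein gene together with other symbols were left out of the comparison and carried a like signal. There were 64 of them, naming 22 ribosomal protein genes, and 56 also named a small nucleolar RNA encoded in an intron of the host gene. Of the 63 that reached the filter, 57 lay above 0 and 44 reached 1.5-fold higher on the JMJD1A/JMJD1B siRNA array, with a median of 0.68, against 52.1% and 21.7% of measured genes. With the loess trend removed the median was 0.12 and 7 reached 1.5-fold higher, and level on the hybridization controls it was 0.070 and none did. The 47 with a mean signal of 10000 or more lay between 0.36 and 0.92, with a median of 0.69. They are not named by gene because each carries several symbols.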

How the results depend on the processing

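The values rest on 1 array a group, and the scaling decides the size of the shared shift; the cause of the changes below was not tested. The median log2 ratio of the measured members, 0.69 as deposited, was 0.044 after quantile normalization, 0.11 after loess, 0.14 after loess fitted without the members, 0.079 level on the hybridization controls and 0.53 over the 26 members left without _x_at and _s_at probe sets. The number at least 1.5-fold higher, 44 as deposited, was 1, 1, 1, 0 and 11 under these in turn, and 15 of 29 by the second brightest probe set. It was 32 of 57 after median scaling and 36 of 57 by the mean of probe sets. At least 2-fold higher was 1 member without a filter, by the mean of probe sets and by the second brightest. At least 1.5-fold lower were 3 members on the hybridization controls, 2 without a filter, 2 without _x_at and _s_at probe sets, and 0 by the second brightest, and at least 2-fold lower 2, 2 and 0 on the hybridization controls, without a filter and by the second brightest. The median of large minus small subunit genes, -0.040 over all measured members, became 0.096 by the second brightest probe set and 0.15 without _x_at and _s_at probe sets. The distance from the median of all measured genes, 0.65, was 0.00025 after quantile normalization, 0.11 after loess, 0.13 after loess without the members and 0.53 without _x_at and _s_at probe sets. Quantile normalization gives equal values to equal ranks on both arrays. As the members made up 32 of the 50 brightest measured genes, a shift that they share is largely removed by construction. Among named genes 1.5-fold higher as deposited, those below 0 under an alternative were RPL39 (-0.0021), RPS10 (-0.043), RPS4X (-0.047) and RPS23 (-0.099) after quantile normalization, RPS23 after loess (-0.024) and by its second probe set (-0.14), and RPL35A without _x_at and _s_at probe sets (-0.14). Of the 7 named genes between 0 and 1.5-fold higher, all lay below 0 on the hybridization controls and 5 (RPL7, RPL22L1, RPL26L1, RPL36AL and RPS28) after quantile normalization and under either loess fit; RPL26L1 did so after median scaling, RPS27L by the mean of probe sets, and RPS27L and RPL22 without _x_at and _s_at probe sets. Of 361 values of 36 named genes under the alternatives, 249 moved by less than 0.54. That is the SD between the 2 brightest probe sets of a gene, over 6192 genes of any brightness. Between bright probe sets of a standard member the SD was 0.043, so a move under 0.54 can still remove most of a shift. RPL22, at 0.56 as deposited and 0.052 after loess, is counted among the 249. No paired analysis was possible because each group has 1 sample and the result comes from no test.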

Other observations

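Probe sets with a single pseudogene symbol of the ribosomal protein family stood apart from the bright members in level. There were 11, for 9 pseudogenes, and 6 reached the filter, none with a signal above 1043. Their log2 ratios ran from -0.65 to 0.91 with a median of -0.019, and 1 reached 1.5-fold higher and 1 reached 1.5-fold lower. Whether they report pseudogene transcripts or the parent genes was not tested.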
